A study of Mus musculus with 20 samples.

Results

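Apart from Slc10a2, a bile acid carrier best known in other cells, the 10 genes described here act in the transport of bile acids and other organic anions by hepatocytes. Their membrane proteins carry these into hepatocytes, out of them into bile, or back into blood. The 10 genes were taken by name, by a rule that uses no measured value, although earlier results of these data were known when the names were chosen. All 10 were found under the same Ensembl identifier in both deposited RNA-seq tables, which list 56884 genes for males and 18149 for females. Livers came from mice aged 11 to 14 weeks, with 3 libraries from WT and 3 from Midn-T mice in each sex. The genotype label of the WT mice is Midn XTR, so the controls also carry the gene-trap cassette in intron 2 of Midn in its untrapped orientation. Midn-T mice (genotype label Midn TR) carry the cassette inverted into the trapped state by Albumin-Cre, a driver active in hepatocytes, and the trap was not aimed at the other cells of the liver. Whether the WT mice also carried Albumin-Cre is not given in the sources used here.

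In the deposited tables, each gene has 1 level per sex, the mean over the 6 libraries of that sex of counts divided by size factors (mean normalized count). WT and Midn-T libraries are pooled in that mean, and the columns that set the genotypes against each other are the authors' own comparison and were not used here. The values below therefore describe how strongly each transporter was expressed in male and in female liver across both genotypes, and nothing is said of the effect of Midn loss. No spread between mice can be computed from 1 mean, so no difference below has a replicate check or a test. The means summed to 30278021 in males and 30759671 in females, and the depth of single libraries is unknown. The tables were normalized separately, so the female means were multiplied by 0.966, the median male to female ratio of 16283 genes with a mean of at least 10 in both, before any ratio between the sexes was taken. Sex and table cannot be told apart here, nor can sex and a genotype effect that differs between the sexes.

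Hepatocytes take bile acids up from sinusoidal blood, conjugate or modify them, and export them across the canalicular membrane into bile. Slc10a1 (NTCP) is the sodium-dependent carrier for conjugated bile acids on the sinusoidal side, and Slco1a1, Slco1a4 and Slco1b2 are sodium-independent carriers of organic anions, steroid conjugates and drugs (OATPs). Abcb11 (BSEP) is the bile salt export pump and Abcc2 (MRP2) the canalicular pump for conjugates such as bilirubin glucuronide. Abcc3 and Abcc4 (MRP3 and MRP4) and the heteromer of Slc51a and Slc51b (OST) return anions to blood across the basolateral membrane. Slc10a2 (ASBT) is the apical bile acid carrier of ileal enterocytes and cholangiocytes, the cells that line bile ducts. Mouse liver is known for sex differences in several OATPs, set by the pattern of growth hormone release.

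The members past 2-fold between the sexes at a mean above 10 in both tables were Slco1a1 and Slco1a4, neighbours on chromosome 6. Their promoters are shown because the pair lies in one gene cluster with opposite orders between the sexes, with that of Slco1b2, from the same cluster, for comparison. Each run gives the 250 bases before the start of the canonical transcript in GENCODE M39, 5′ to 3′ on the gene's strand, from the GRCm39 genome, the build the authors aligned to. The windows are chr6:141892691-141892940 (minus strand) for Slco1a1, chr6:141802037-141802286 (minus strand) for Slco1a4 and chr6:141574929-141575178 (plus strand) for Slco1b2. Capitals mark every match, on either strand, to the STAT5 consensus TTCNNNGAA, the nuclear receptor half-site AGGTCA, the HNF1 half-site GTTAAT or the TATA box TATAAA.
Slco1a1: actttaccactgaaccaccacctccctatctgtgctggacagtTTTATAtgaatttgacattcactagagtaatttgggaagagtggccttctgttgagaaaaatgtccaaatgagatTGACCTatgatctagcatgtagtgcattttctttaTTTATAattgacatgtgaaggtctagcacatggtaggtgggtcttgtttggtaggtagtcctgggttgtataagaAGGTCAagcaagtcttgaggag
Slco1a4: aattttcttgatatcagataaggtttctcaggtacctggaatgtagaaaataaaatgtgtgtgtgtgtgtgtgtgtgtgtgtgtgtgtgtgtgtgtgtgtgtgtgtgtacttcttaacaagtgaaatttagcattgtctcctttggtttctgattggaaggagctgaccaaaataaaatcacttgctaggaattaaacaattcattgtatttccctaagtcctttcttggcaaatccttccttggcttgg
Slco1b2: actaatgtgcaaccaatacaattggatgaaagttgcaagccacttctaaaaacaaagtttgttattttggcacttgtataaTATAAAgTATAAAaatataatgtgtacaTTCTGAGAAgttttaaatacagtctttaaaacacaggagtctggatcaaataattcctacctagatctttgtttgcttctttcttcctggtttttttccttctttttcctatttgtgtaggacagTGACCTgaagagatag

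The Slco1a1 window held 2 nuclear receptor half-sites and 2 TATA box matches, both on the opposite strand. The Slco1a4 window held none of the 4 motifs, and a run of alternating g and t lies in the part farther from the start. The Slco1b2 window held the single STAT5 match among the 10 members, 1 nuclear receptor half-site and 2 TATAAA matches. The first bases of the TATAAA matches lay 207 and 97 bases before the start in Slco1a1, and 169 and 162 in Slco1b2. Whether any of them acts as a TATA box was not tested. Over 21770 protein-coding promoters of the same length, 7.70% held the STAT5 consensus, 13.1% the nuclear receptor half-site, 6.28% the HNF1 half-site and 11.9% a TATAAA match. Among the 10 members, 4 held the nuclear receptor half-site (Slc10a1, Slco1a1, Slco1b2 and Slc51b) and 2 the HNF1 half-site (Slc10a2 and Abcb11). A TATAAA match was held by 3 (Slco1a1, Slco1b2 and Slc51b), in Slc51b from 192 bases before the start. These matches are letters in a window and were not tied to any measurement of binding.

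Slco1a1 (ENSMUSG00000041698, GRCm39 chromosome 6, 141853007 to 141892690, minus strand) had a mean normalized count of 20318 in males and 7858 in females. After scaling, the male mean was 2.68-fold higher, a log2 ratio of 1.42, and 0.809% of the 17178 genes compared had a larger one. Slco1a4 (ENSMUSG00000030237, chromosome 6, 141751165 to 141802036, minus strand), which carries cardiac glycosides as well as bile acids, had the opposite order, with means of 2529 in males and 7597 in females. The female mean was 2.90-fold higher, a log2 ratio of -1.54, and 1.30% of genes had a lower one. Slco1b2 (ENSMUSG00000030236, chromosome 6, 141575179 to 141633546, plus strand), the mouse gene most like the human hepatic OATP1B genes, differed little between the sexes, at 44241 and 44365. Its log2 ratio of 0.05 turned to -0.0040 with the means as deposited and to -0.03 with each table divided by its sum without the 10 largest genes.

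**Figure D1:**
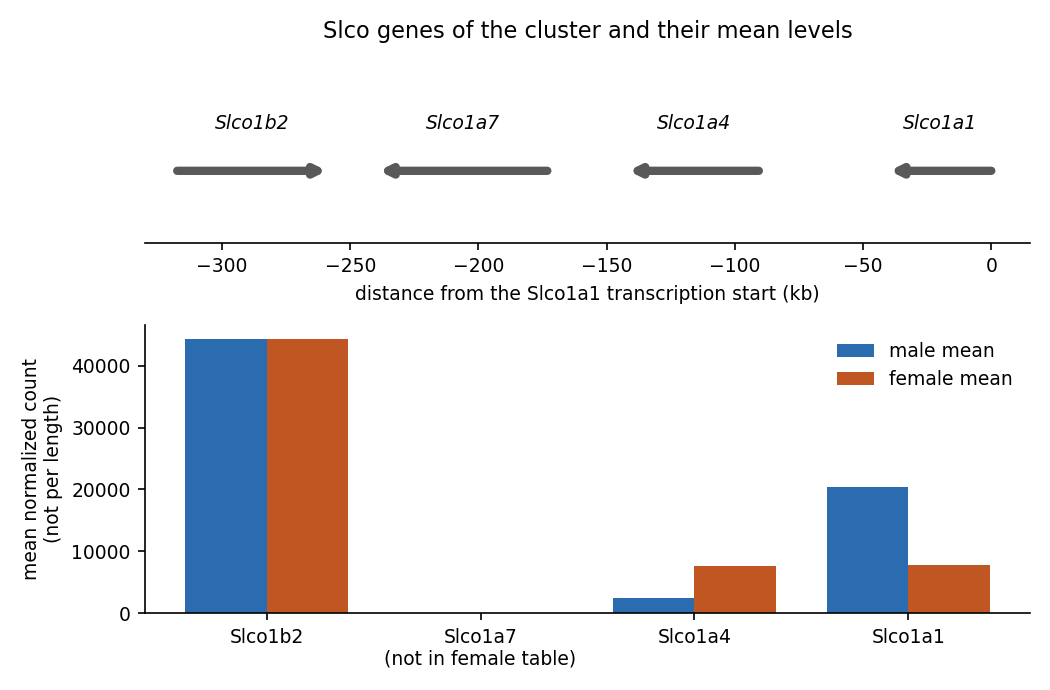
The upper panel maps the 4 Slco genes from Slco1b2 to Slco1a1 by distance in kb from the Slco1a1 transcription start, with arrows in the direction of transcription; the lower panel plots the mean normalized count over 6 libraries (y axis, not per length) for males (blue) and females (orange), without error bars because the tables hold 1 mean per sex. Slco1a1 is at 20318 in males against 7858 in females and Slco1a4 at 2529 against 7597, while Slco1b2 is at 44241 and 44365.

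Reads of near-identical family members can be lost or shared, so the exact 31-base words of each canonical transcript were looked up in the transcripts of all other genes. Slco1a1 shared 5.41% of its words with other genes, mostly with Slco1a4 (3.40%). Slco1a4 shared 8.19%, mostly with Slco1a5 (5.54%), a gene listed at 0 in the male table and not in the female one. Slco1b2 shared 0 of its 4516 words. Of the other members, Abcc3 had the largest share, 9.90%, all with Gm51871, a long noncoding RNA that overlaps it on the opposite strand. The authors counted reads by strand, and Gm51871 was listed for neither sex. The remaining members lay between 0.251% and 6.32%. How the shared words bear on the means was not tested.

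Levels can be set against each other only per length, so each mean was divided by the kilobases of exon annotated for the gene. On this scale (mean normalized count per kb), the 3 OATP genes together reached 11017 in males and 9272 in females. Levels per kb, here and below, were not multiplied by the female factor of 0.966, so the sexes are compared by the log2 ratios instead. Slco1b2 was the highest of the 10 members in both sexes, at 6873 and 6892 per kb. Slco1a1 stood at 3847 per kb in males and 1488 in females, and Slco1a4 at 297 and 892. Slco1a1 was thus 13.0 times as high as Slco1a4 per kb in males and 1.67 times as high in females. With the longest transcript in place of all exons these ratios were 7.88 and 1.01, since Slco1a4 has 8515 nt of annotated exon but a longest transcript of 3979 nt. Of the summed level per kb of the 3 genes, Slco1a1 made up 34.9% in males and 16.0% in females, Slco1a4 2.70% and 9.62%, and Slco1b2 62.4% and 74.3%.

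**Figure D2:**
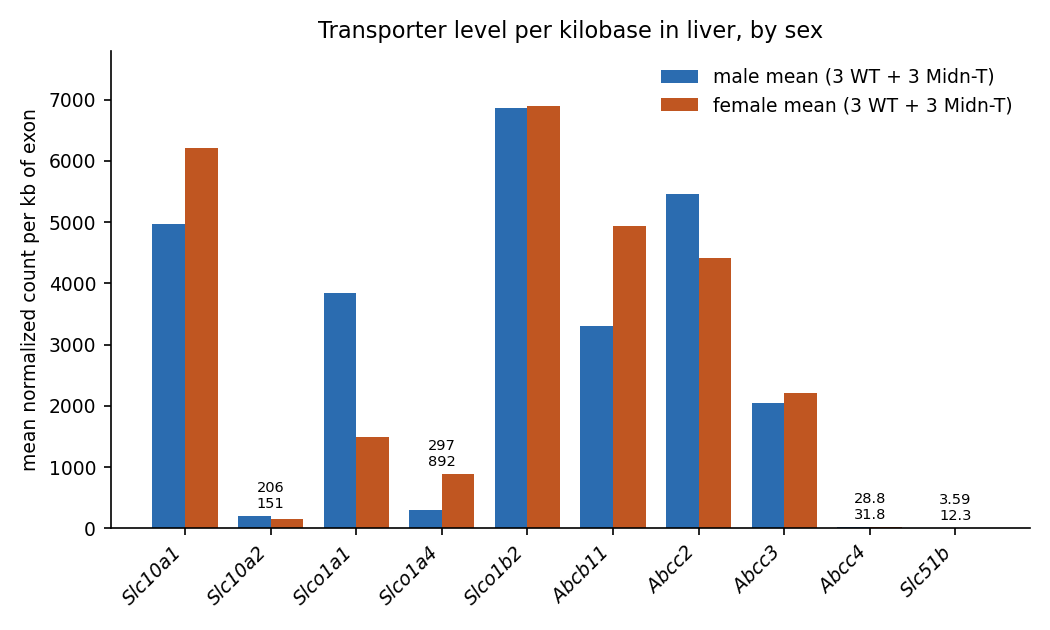
Bars give the mean normalized count per kb of annotated exon (y axis, from 0) of the 10 transporters in males (blue) and females (orange), each a mean over 3 WT and 3 Midn-T libraries, with no error bar because the tables hold 1 mean per sex. Female bars are not multiplied by 0.966. Above short bars the upper number is the male value and the lower the female. Slco1b2 is the tallest pair at 6873 and 6892, and Abcc4 and Slc51b are barely visible.

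The sinusoidal bile acid carrier Slc10a1 (ENSMUSG00000021135, chromosome 12, 80996372 to 81015479, minus strand) had means of 16615 in males and 20711 in females, which put the female mean 1.20-fold higher (log2 ratio -0.27). This lies close to the middle spread of all genes, whose quartiles were -0.26 and 0.18. Per kb it reached 4979 in males and 6207 in females, above 99.1% and 99.3% of the 18045 genes that are in both tables and have a length. Slc10a2 (ENSMUSG00000023073, chromosome 8, 5133219 to 5155351, minus strand) was lower in these livers, with means of 857 in males and 629 in females. The male mean was 1.41-fold higher (log2 ratio 0.50), and 6.34% of genes had a larger ratio. Per kb, Slc10a1 was 24.1 times as high as Slc10a2 in males and 41.0 times in females, or 41.7 and 70.9 times with the longest transcript as length.

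Slc10a2 was set beside markers of the cells and tissues in which it is best known. The 6 cholangiocyte markers were all listed, with male means from 12.3 (Cftr, the chloride channel of duct cells) to 737 (Spp1, osteopontin) and female means from 19.8 to 850. Their sums were 1075 in males and 1207 in females, and Sox9, a duct cell transcription factor, was the one marker higher in males, at 245 against 209. Per kb, Slc10a2 stood at 206 in males and 151 in females, below Spp1 at 259 and 299. It lay above every other cholangiocyte marker in both sexes. The highest of those was Sox9, at 58.7 in males and 50.2 in females. Krt19, a keratin of bile duct cells, stood at 10.6 and 20.5. Of the ileal markers, Fabp6 and Cdx2, which define ileal enterocytes and intestinal epithelium, were listed at 0 in the male table and were not in the female table. Lct (2.91 in males) was not in the female table either, Vil1 had means of 10.6 and 11.2, and Fabp2 had means of 848 and 946. Of the kidney markers, Slc34a1, Slc12a1 and Kap were listed at 0 in males, Umod had a male mean of 1.19, and Slc12a3 had means of 20.6 and 16.0. In bulk liver, fewer cells of a type and less RNA per cell cannot be told apart, and the part of duct cells in the Slc10a2 values was not tested.

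Both canalicular pumps stood high per kb, and they differed in opposite directions between the sexes by less than 2-fold. Abcc2 (ENSMUSG00000025194, chromosome 19, 43770631 to 43829179, plus strand) had means of 47502 in males and 38398 in females, a male mean 1.28-fold higher (log2 ratio 0.36). Abcb11 (ENSMUSG00000027048, chromosome 2, 69068544 to 69173315, minus strand) had 18344 in males and 27433 in females, a female mean 1.44-fold higher (log2 ratio -0.53). The order of the pumps per kb therefore differed between the sexes. Abcc2 stood at 5457 per kb against 3299 for Abcb11 in males, and at 4411 against 4934 in females. Abcc2 was thus 1.65 times as high as Abcb11 in males and 0.894 times as high in females. With the longest transcript as length these ratios were 1.77 and 0.956, so the pumps were close in females. Per kb, Abcb11 exceeded 98.5% of the genes in both tables in males and 99.0% in females, and Abcc2 99.2% and 98.9%.

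Among the basolateral exporters, Abcc3 was high per kb and the others low. Abcc3 (ENSMUSG00000020865, chromosome 11, 94233874 to 94283823, minus strand) had means of 12228 in males and 13164 in females, 1.04-fold apart (log2 ratio -0.06). Per kb it reached 2048 and 2205. Abcc4 (ENSMUSG00000032849, chromosome 14, 118720103 to 118943924, minus strand), which also exports cyclic nucleotides, had means of 249 and 274, 1.07-fold apart (log2 ratio -0.09). At 28.8 and 31.8 per kb it lay below the median of the genes in both tables, which stood at 49.8 in males and 53.1 in females. The many genes listed for males alone are not in that median. Slc51b (ENSMUSG00000053862, chromosome 9, 65319995 to 65330597, minus strand) was the lowest member per kb (3.59 and 12.3), with means of 3.85 in males and 13.1 in females. The female mean was 3.29-fold higher (log2 ratio -1.72), but Slc51b passed the minimum of 10 through its female mean alone. Any gene that entered this way had the higher unscaled mean in females through the filter itself. Slc51a, the partner without which Slc51b does not form a transporter, had a male mean of 0.501 and was not in the female table.

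Of the 10 members, 4 had the higher mean in males and 6 in females, and the median log2 ratio was -0.07, beside -0.01 over all genes compared. The 6 include Slc51b, which passed the filter through its female mean alone. The 4 include Slco1b2, whose sign depended on the scaling. The share of all genes higher in each sex was not counted. A mean at least 2-fold higher in males was found for 1 member (Slco1a1), and for 1.61% of the 17178 genes. A mean at least 2-fold higher in females was found for 2 members (Slco1a4 and Slc51b), and for 3.25% of genes. Slc51b and an uncounted part of these genes entered through a female mean of at least 10 alone, and with a mean of at least 50 in both sexes the count was 1 member (Slco1a4) and the share 1.26% of genes. The other 7 members differed by 1.03-fold to 1.44-fold. The female table lists no gene with a mean under 6.61, and 106 genes with a male mean of at least 10 are not in it. The male share leaves those genes out, and why they are absent was not tested. No member is among those 106.

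**Figure D3:**
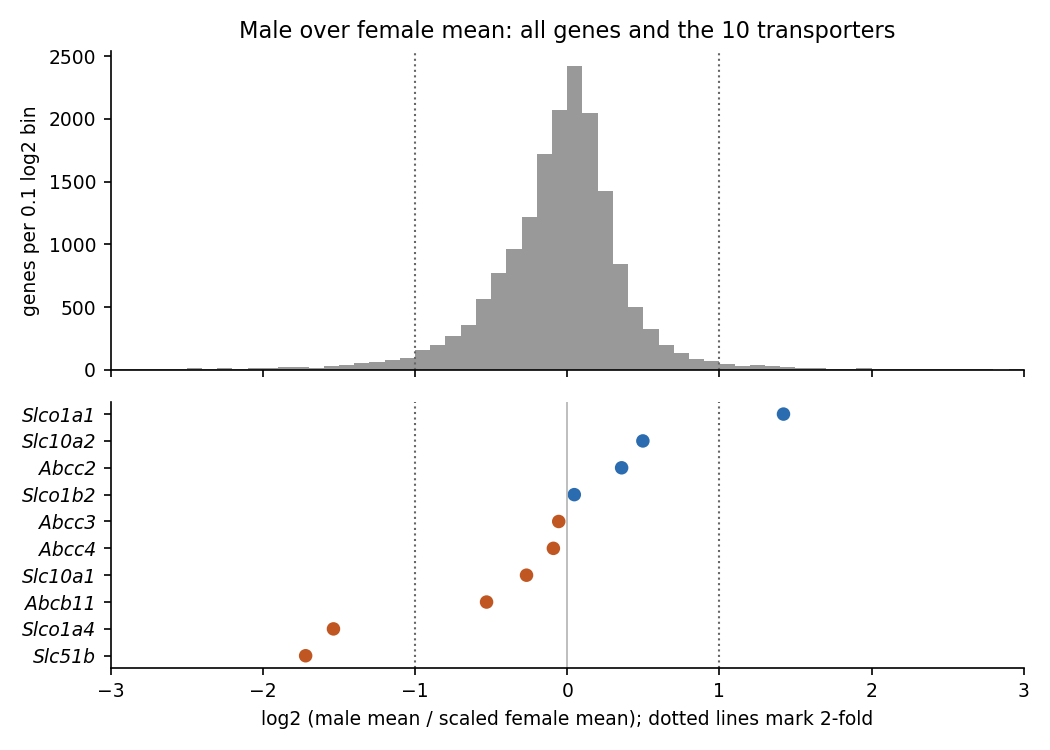
The upper panel is a histogram of the log2 ratio of the male mean to the scaled female mean (x axis) over the genes compared (y axis, genes per bin), leaving out 87 genes beyond 3 in either direction; the lower panel places the 10 transporters on the same axis, blue where the male and orange where the female mean was higher. Dotted lines mark 2-fold, and Slco1a1 at 1.42, Slco1a4 at -1.54 and Slc51b at -1.72 lie outside them, Slc51b with a male mean of 3.85, below the minimum of 10 that it passed in females alone.

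By level per kb, the order in males was Slco1b2, Abcc2, Slc10a1, Slco1a1, Abcb11, Abcc3, Slco1a4, Slc10a2, Abcc4 and Slc51b. In females it was Slco1b2, Slc10a1, Abcb11, Abcc2, Abcc3, Slco1a1, Slco1a4, Slc10a2, Abcc4 and Slc51b. Whether neighbours in these orders differ beyond the spread between mice cannot be said from 1 mean per sex. The lowest 4 members and the top member were the same in both sexes, and Slco1a1 moved from rank 4 in males to rank 6 in females. With the longest transcript as length, 2 members changed rank in each sex, and Slc10a1 then led in females at 10731 per kb. Summed over the 10 members the level was 27039 per kb in males and 27224 in females, without the scaling between tables. The order of these sums is therefore not read as a sex difference.

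Other transporters studied in liver, not all of them particular to hepatocytes, gave the members a setting. Of 18 genes, 14 could be compared, with a median log2 ratio of -0.12. Abcg2, an exporter of sulfate conjugates and drugs, was 2.27-fold higher in males (means of 2873 and 1310). Abcb1a, a P-glycoprotein gene, was 2.60-fold higher in females (means of 201 and 539). The others differed by less than 2-fold, among them the phospholipid flippase Abcb4 (log2 ratio -0.0053) and the sterol exporters Abcg5 (-0.17) and Abcg8 (-0.16). Of the 4 that could not be compared, Slc51a, Slco1a5 and Slco1a6 had male means of at most 0.555 and were not in the female table, and Slc10a6 had means of 8.09 and 7.86.

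Of 13 transcription factors known to act on these transporter genes, 12 could be compared, and none reached 2-fold in either direction under any of the scalings tried. Over all genes compared, 1.61% were at least 2-fold higher in males and 3.25% in females. With shares this low, the absence of such a gene among 12 is not read as a trait of the regulators. The bile acid receptor Nr1h4 (FXR) had means of 5171 in males and 4465 in females (log2 ratio 0.26). Nr1i3 (CAR), a xenobiotic receptor, had the lowest ratio of the list, -0.62, with means of 9453 and 15023. Onecut1 (HNF6) had the highest, 0.72, with means of 849 and 535. Vdr, the vitamin D receptor, had a male mean of 2.88 and was not in the female table.

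**Figure D4:**
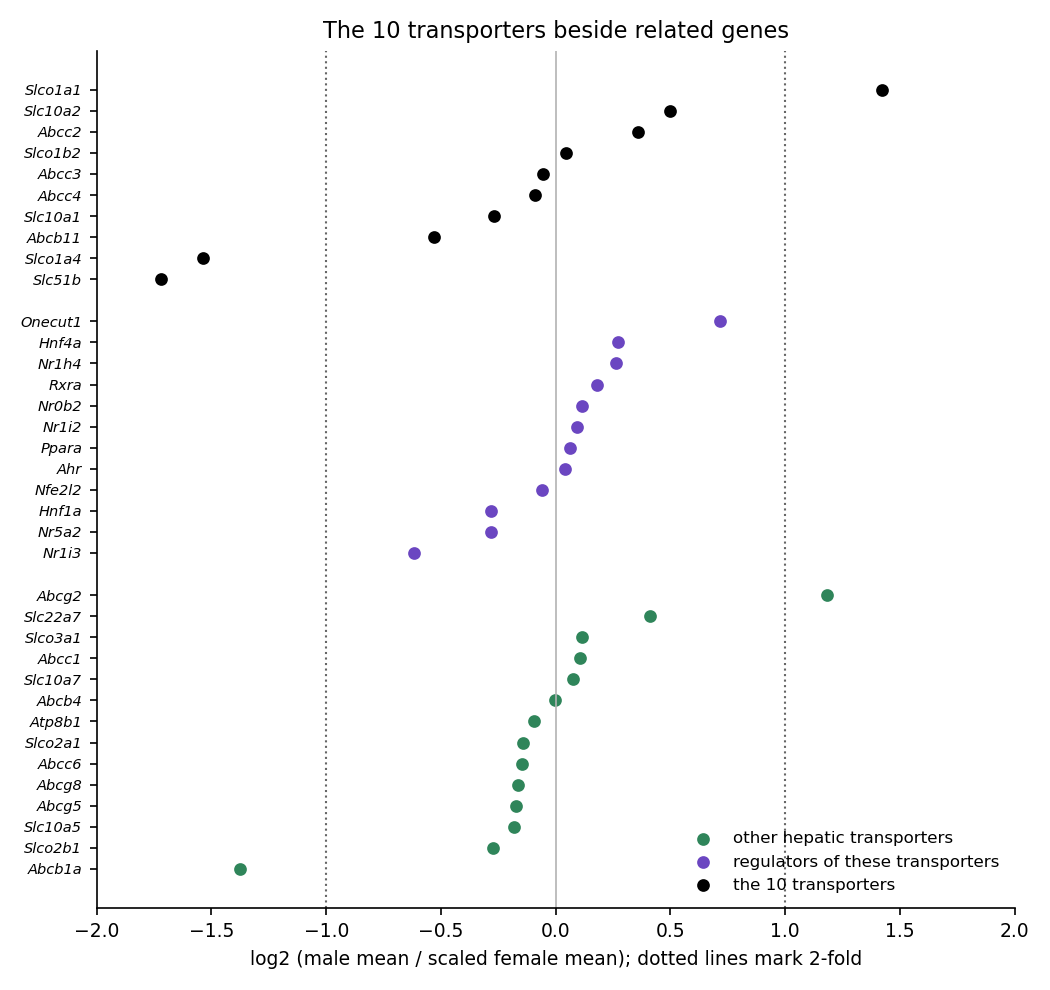
Each point is the log2 ratio of the male mean to the scaled female mean (x axis) of 1 gene (y axis), for the 10 transporters (black), 12 regulators (purple) and 14 other hepatic transporters (green) that could be compared, with dotted lines at 2-fold. Outside the lines are Slco1a1, Slco1a4, Abcg2 and Abcb1a, and Slc51b, which passed the minimum of 10 through its female mean alone.

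The labels of both tables were checked against genes with a known sex difference. Xist, the X-inactivation RNA, had a mean of 14.0 in males and 72478 in females, and the Y-linked genes Ddx3y, Eif2s3y, Kdm5d and Uty had male means from 964 to 3147 and were not in the female table. All 11 male-biased liver genes that could be compared were at least 2-fold higher in males, and all 12 female-biased ones in females. Of the 2 listed genes that could not be compared, male-biased Moxd1 had a male mean of 161 and was not in the female table, and female-biased A1bg, at 0.773 in males, was not in it either and so does not show the order of its list. Their median log2 ratios, 4.23 and -9.99, were farther from 0 than that of any of the 10 transporters. Hepatocyte markers were abundant, with Alb at 1726240 and 2332940, and none of the markers of hepatocytes, cholangiocytes, Kupffer, sinusoidal endothelial or stellate cells differed 2-fold. Midn itself had a mean of 1672 in males and 1357 in females over both genotypes, a value that does not check the trap.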

How the data were processed

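RNA-seq of liver from 3 WT and 3 Midn-T mice per sex was analysed. Per the methods of the authors, STAR placed the reads on GRCm39, HTSeq tallied the uniquely mapped ones over Ensembl release 110 genes with reverse strandedness, and the authors put males and females through DESeq2 in separate runs. The signal used is the deposited mean, over 6 libraries, of counts corrected by the authors for library size. The remaining columns (log2 fold change, its standard error, Wald statistic and p-values of Midn-T against WT) hold the authors' own comparison and were not used, nor were the ATAC-seq peak lists, which give positions and directions from such a comparison. The titles of several ATAC-seq samples contradict their library names and characteristics. Tables were joined on gene identifier. Genes with a mean of at least 10 in 1 table were compared, at a threshold of 2-fold, after median scaling. Exon lengths and starts came from GENCODE M39, promoters of 250 bases from GRCm39 and 31-base words from the M39 transcripts. Members, lists, thresholds and alternatives were chosen with earlier results of these data known. The genes named are the members, Midn, the sex and tissue markers, and related genes past 2-fold. Abcb4, Abcg5, Abcg8, Slc51a, Slco1a5, Slco1a6, Slc10a6, Gm51871, Nr1h4, Nr1i3, Onecut1 and Vdr were named after their values were seen. A further transporter was left out of that list and is not reported here. Python 3.11.15, numpy 2.4.6, pandas 2.3.3 and matplotlib 3.10.9 were used.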

Additional observations from a re-analysis of the deposited data

How the results depend on the processing

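The count of members at least 2-fold higher in males was 1 under all 5 alternatives (3 other scalings of the tables, a 1.5-fold threshold and a minimum mean of 50 in both tables). The count at least 2-fold higher in females was 2 under 4 of them and 1 with the minimum of 50, which drops Slc51b. Of 30 log2 ratios of members under the other 3 scalings, 28 kept their sign. Both reversals were of Slco1b2, to -0.0040 with the means as deposited and to -0.031 with each sum taken without the 10 largest genes. The scalings lay within 0.08 of each other on the log2 scale. At 1.5-fold, 4.63% of all genes were higher in males and 9.49% in females, and with the minimum of 50 the shares were 1.18% and 1.26%. For the other transporters, alternatives chosen after seeing the data left 1 gene in each direction. For the regulators, 1 gene in each direction passed 1.5-fold. With the longest transcript as length, levels per kb rose by up to 2.14 times (Slco1a4). Leaving out a mouse was not possible, since the tables hold means over 6 libraries. No paired analysis was possible because no value of a single sample was used. Depth per library is unknown, so low means such as that of Slc51b have no counting interval.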
